A study of Mus musculus with 4 samples.

Results

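The BCL2 family genes examined here are the 10 mouse genes Mcl1, Bcl2, Bcl2l1, Bcl2l2, Bax, Bak1, Bcl2l11, Pmaip1, Bbc3 and Bid, of 21883 protein-coding genes on assembled chromosomes. They were chosen by name, as 4 genes whose products keep cells alive (Mcl1, Bcl2, Bcl2l1, Bcl2l2) and 6 whose products promote cell death (Bax, Bak1, Bcl2l11, Pmaip1, Bbc3, Bid). Earlier results of these data were known when the members were chosen. A peak was assigned to a member when at least 1 bp of it lay in the gene or within 5 kb of its GRCm38 boundaries, an interval called the window below. The study listed sites of RNA polymerase II (Pol II) by ChIP-seq, in which crosslinked chromatin is recovered with an antibody and sequenced, and the design asks where Pol II lay with OSS_128167 and without it. That compound is an inhibitor of SIRT6, a chromatin deacylase. The OSS_128167 group is the Pol II library whose title names treated osteoblasts, and the untreated group is the one titled WT Osteoblasts. Both came from primary osteoblasts of young mice, made from adherent bone mesenchymal cells in osteogenic medium, and strain, sex and number of animals are not stated. The treatment field names OSS_128167 for all 4 samples, so the untreated group rests on its title, and the treated library's deposited list carries SIRT6 in its name in place of the inhibitor. Each group had 1 Pol II library and 1 input library, and only the Pol II lists were analysed.

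The BCL2 family controls the mitochondrial route to apoptosis. Bax and Bak1 encode the effectors that open pores in the outer mitochondrial membrane, and MCL1, BCL2, BCL-XL (encoded by Bcl2l1) and BCL-W (encoded by Bcl2l2) hold them in check. The BH3-only proteins BIM (Bcl2l11), NOXA (Pmaip1), PUMA (Bbc3) and BID (Bid) carry death signals by binding the survival proteins or the effectors. MCL1 is a short-lived protein whose level depends on continued synthesis, NOXA binds it with preference, and Pmaip1 and Bbc3 are known targets of p53. In bone, the life span of osteoblasts and their death by apoptosis bear on bone mass.

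With 1 library per group there is no replicate, so no test between the groups or between survival and death members was possible, and differences below compare 2 lists. The OSS_128167 list held 40748 peaks and the untreated list 1694, and the deposited FDR was at most 0.05 for 6568 OSS_128167 and 109 untreated peaks. The depth of each library is unknown. Every fold, p-value, FDR and pileup below is the authors' value for that peak within its own list, and 95% intervals (exact, Clopper-Pearson) allow for counting error over genes only. In the OSS_128167 list 6 of 9 osteoblast marker genes had a peak in the window, against 46.7% of all protein-coding genes. Col1a1, Col1a2, Sparc, Runx2 and Sp7 had one at an FDR of at most 0.05, against 15.6%, while Alpl, Bglap and Ibsp had no window peak. Runx2 spans 318811 bp, and its strongest window peak also lay over Supt3. Of protein-coding genes over 50 kb, 75.6% had a window peak. Of 5 macrophage markers 3 had a window peak (Cd68, Adgre1 and Ptprc), with Lyz2 and Csf1r at none. Cd68 and Adgre1 met the FDR limit of 0.05. The strongest Cd68 window peak lay over Eif4a1, and 81.6% of Cd68 itself was covered, with a peak in the gene (fold 4.39, FDR 5.34e-05). A peak in the gene at that limit was found at 4 of 9 osteoblast and 2 of 5 macrophage markers, against 9.97% of protein-coding genes. Of 3 osteoclast markers 0 had a window peak, of 3 adipocyte markers 1, of 3 chondrocyte markers 2 and of 3 endothelial markers 2. The untreated list had 2 of 9 osteoblast markers (Col1a2 and Runx2), 1 adipocyte marker (Pparg) and 0 of the others, against 2.71% of protein-coding genes. None of these markers had an untreated peak at an FDR of at most 0.05, against 0.142%. The part of other cell types in the results below was not tested.

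The stretch before the transcription start is shown for the member with a Pol II peak there, Mcl1, for 2 members without one, Bcl2 and Bax, and for Ftl1, the neighbour of Bax whose start lies under the peak of the Bax window. The sequences are from RefSeq (GRCm38.p6), and each gives the 250 bases before the listed start, 5′ to 3′ on the strand of the gene. Capitals mark bases under a peak of the OSS_128167 list, so a sequence without capitals held none. They are Mcl1 on chromosome 3 (chr3:95658471-95658720, plus strand), Bcl2 (chr1:106714291-106714540, minus strand), Bax (chr7:45466899-45467148, minus strand) and Ftl1 (chr7:45459887-45460136, minus strand).
Mcl1: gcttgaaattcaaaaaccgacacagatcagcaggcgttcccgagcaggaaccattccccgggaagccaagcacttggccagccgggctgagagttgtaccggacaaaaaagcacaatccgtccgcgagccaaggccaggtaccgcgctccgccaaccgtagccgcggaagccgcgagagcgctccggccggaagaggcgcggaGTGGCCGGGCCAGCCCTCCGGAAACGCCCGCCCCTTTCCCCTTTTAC
Bcl2: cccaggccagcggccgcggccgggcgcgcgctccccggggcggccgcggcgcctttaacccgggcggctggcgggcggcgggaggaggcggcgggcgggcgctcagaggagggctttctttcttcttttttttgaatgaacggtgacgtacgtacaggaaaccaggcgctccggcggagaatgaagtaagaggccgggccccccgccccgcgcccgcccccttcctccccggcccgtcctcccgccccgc
Bax: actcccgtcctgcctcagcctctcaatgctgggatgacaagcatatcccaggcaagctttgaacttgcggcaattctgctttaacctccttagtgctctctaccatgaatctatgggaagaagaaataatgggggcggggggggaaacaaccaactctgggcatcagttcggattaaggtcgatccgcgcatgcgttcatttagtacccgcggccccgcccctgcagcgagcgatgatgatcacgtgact
Ftl1: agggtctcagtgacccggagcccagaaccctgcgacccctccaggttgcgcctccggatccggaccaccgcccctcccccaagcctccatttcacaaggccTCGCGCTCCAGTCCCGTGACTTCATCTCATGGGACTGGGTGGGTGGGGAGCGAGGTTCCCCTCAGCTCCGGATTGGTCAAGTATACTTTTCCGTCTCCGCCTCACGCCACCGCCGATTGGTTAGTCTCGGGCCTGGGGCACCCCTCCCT
At Mcl1 the last 47 bases before the start lay under the peak, and at Ftl1 the last 149.

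In the OSS_128167 list 7 of 10 members had a peak in the window (70%, exact 95% interval 34.8 to 93.3), against 46.7% of all protein-coding genes. They were the survival genes Mcl1, Bcl2 and Bcl2l2 and the death genes Bax, Bak1, Pmaip1 and Bid, whereas Bcl2l1, Bcl2l11 and Bbc3 had none. In the untreated list 0 of 10 members had one, against 2.71% of protein-coding genes, and a count of 0 in 10 has an exact 95% upper limit of 30.8%. The windows of the 7 members held 14 peaks, of which Mcl1 held 8 and the 6 other members 1 each. At an FDR of at most 0.05, 3 members remained in the OSS_128167 list (Mcl1, Bcl2l2 and Bax; 30%, 6.67 to 65.2), against 15.6% of protein-coding genes. The exact intervals of these shares include the background share in each case, but with 10 genes chosen by name they are wide and do not show likeness to it.

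Fewer members had a peak in the gene itself. In the OSS_128167 list it was found at 4 of 10 members (Mcl1, Bcl2, Pmaip1 and Bid; 40%, 12.2 to 73.8), against 34.4% of protein-coding genes, and in the untreated list at 0 of 10, against 2.18%, or 0.114% when the FDR limit of 0.05 applied. In the OSS_128167 list Mcl1 alone had one that met this limit, 1 of 10 members, against 9.97% of protein-coding genes. Longer genes give a peak more room. Of the 6 members under 10 kb in the OSS_128167 list, 5 had a peak in the window, against 28.1% of protein-coding genes of that length, and 2 (Mcl1 and Pmaip1) in the gene, against 13.3%. The window peaks of Bcl2l2, Bax and Bak1 lay outside these genes and over other genes. With the FDR limit, 1 of the 6 members under 10 kb had a peak in the gene, against 5.45%. Between 10 and 50 kb, Bid had a peak in the gene and Bcl2l11 none in the window, against 47.2% of genes with a peak in the window and 33.1% in the gene (8.66% at an FDR of at most 0.05). Over 50 kb, Bcl2 had a peak in the gene and Bcl2l1 none in the window, against 75.6% and 70.8% (19.6% at that limit).

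**Figure D1:**
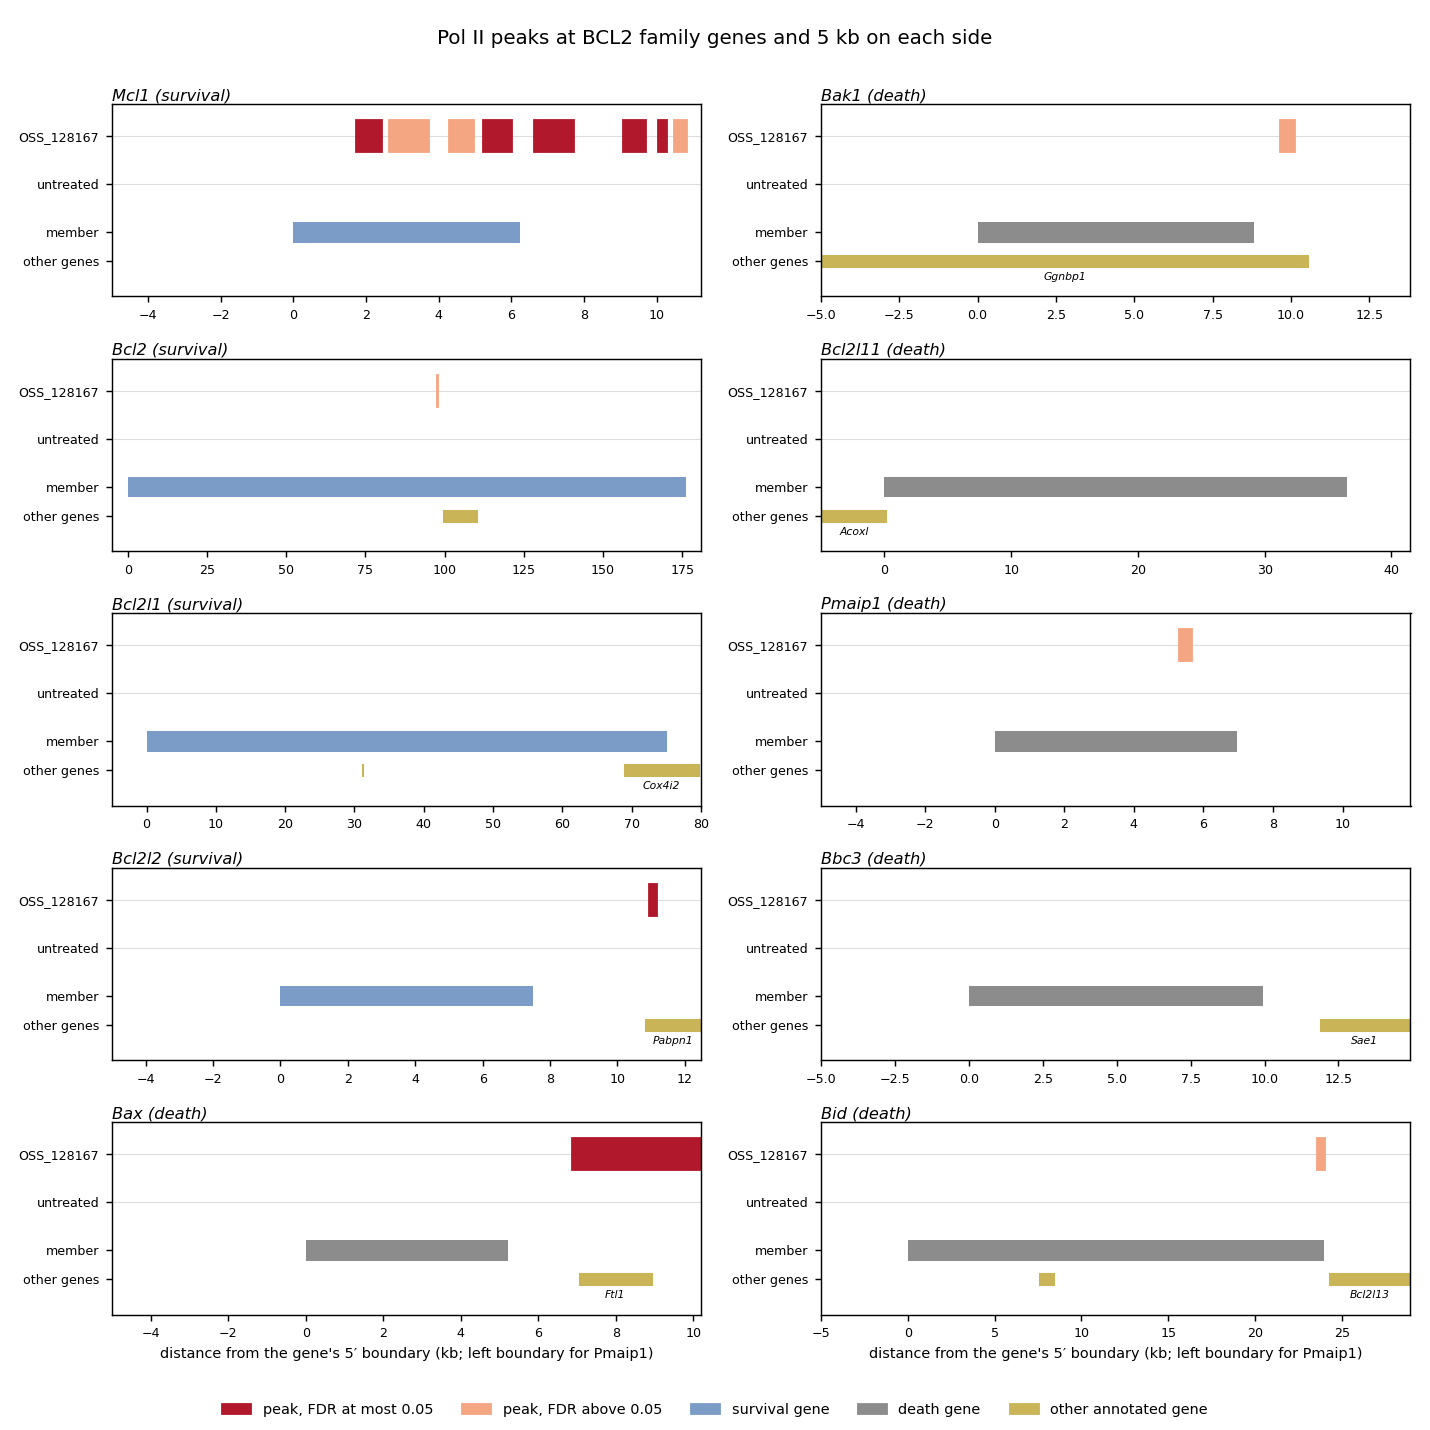
Peaks (upper rows) along each member and 5 kb on each side, against the distance in kb from the 5′ boundary of the gene (left boundary for Pmaip1), with the member and other annotated genes in the lower rows. Mcl1 holds 8 peaks of the OSS_128167 list and no other member more than 1, the peaks of the Bcl2l2, Bax and Bak1 windows lie outside these genes and over Pabpn1, Ftl1 and Ggnbp1, and the untreated row is empty throughout (the Bax peak runs past the window, and peaks have an outline so that narrow ones show).

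Mcl1 carried a row of Pol II peaks from its transcription start to several kb past its end in the OSS_128167 list, and no peak in the untreated list. The gene lies on chromosome 3 from 95656944 to 95663179 (6236 bp, plus strand). RefSeq's promoter table lists its start at 95658721, which is 1777 bp inside the left boundary. The 8 peaks ran from 95658674 to 95667782, a span of 9109 bp of which 5681 bp (62.4%) lay under peaks. Gaps between them measured 182 to 1343 bp. Inside the gene 3331 bp were covered, which is 53.4% of its length, and from the listed start to the gene end the share was 73.6%. With peaks of an FDR of at most 0.05 alone the covered share of the gene was 24.5%.

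The first Mcl1 peak began 47 bp before the listed start and ended 671 bp after it, with a fold of 4.41 and an FDR of 0.000167. The next 2 lay in the gene, 1100 and 705 bp long, with folds of 2.65 and 2.27 and FDRs of 0.100 and 0.456. The fourth, 807 bp long, ended 206 bp before the gene end and had a fold of 3.69 and an FDR of 0.000995. Fold was thus higher at both ends of the transcribed stretch than between them, where neither peak had an FDR of at most 0.05. Pileup did not follow this order, with values of 15, 16, 12 and 17 for the peaks in the gene, from the listed start onward. The fifth peak was the strongest of the row, with a fold of 5.12, an FDR of 1.37e-06 and a length of 1089 bp, and it began 402 bp past the gene end. The sixth, seventh and eighth began 2834, 3804 and 4244 bp past it, with folds of 4.14, 3.81 and 3.13 and FDRs of 0.000838, 0.0046 and 0.0619. In all, 4 of the 8 peaks and 2350 bp of peak lay beyond the annotated end, and the last reached 4603 bp past it. The pileups of the 8 peaks, in whole units in this list, lay between 12 and 18.

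**Figure D2:**
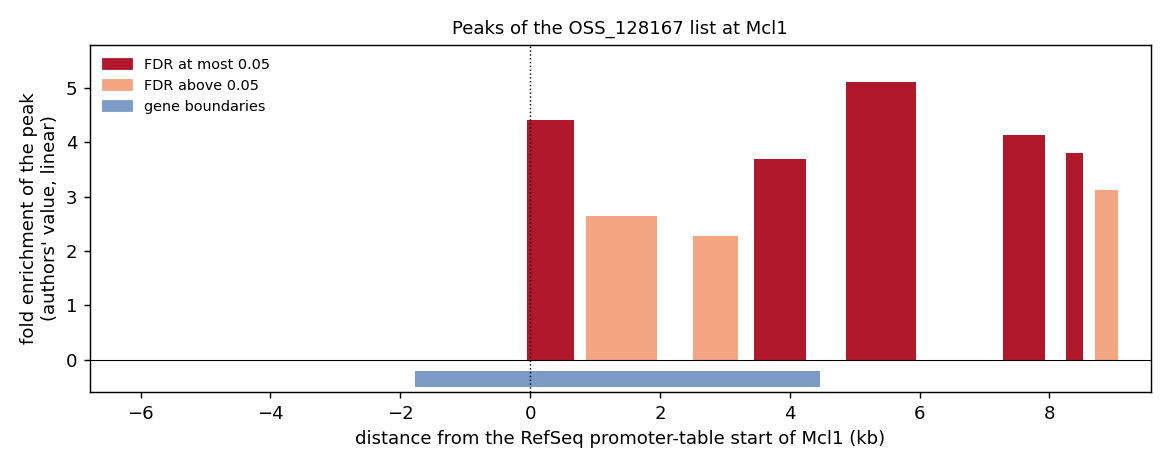
Fold enrichment (authors' linear values) of the 8 OSS_128167 peaks at Mcl1 against the distance in kb from the listed start (dotted line), each bar as wide as its peak, with the gene boundaries below. The folds are 4.41 at the start, 2.65 and 2.27 within the gene, 3.69 near its end and 5.12 just past it, and the last peak ends 9061 bp after the start.

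No other annotated gene lay within 1 kb of these 8 peaks. The outermost peak counted began 4244 bp past the gene, and the next, outside the window, began 8584 bp past it (chromosome 3, 95671763 to 95672176, fold 3.37, FDR 0.0205) and reached the long non-coding RNA gene Gm52627, which starts 8993 bp from Mcl1. Mcl1 peaks had a median length of 712 bp, against 278 bp over the OSS_128167 list, and a median fold of 3.75, against 2.87. A covered share at least as high as that of Mcl1 was found in 0.64% of protein-coding genes and in 1.64% of those under 10 kb. At least 8 peaks in the window were found in 2.21% of all and in 0.303% of those under 10 kb. The nearest untreated peak lay 193295 bp from Mcl1, and its fold was 3.09 (FDR 1).

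Among 3216 protein-coding genes within 1.5 times the length of Mcl1, 20 were covered over at least as large a share. The 5 closest to it in covered share were Odc1 (52.3%), the rate-limiting enzyme of polyamine synthesis, Myc (54.9%), a growth-promoting transcription factor, Mat2a (56.8%), which makes S-adenosylmethionine, Ptrh2 (49.9%), a mitochondrial peptidyl-tRNA hydrolase, and Rplp0 (57.2%), a ribosomal stalk protein. Mat2a had 8 peaks in its window, like Mcl1, Ptrh2 7, Odc1 and Rplp0 5 each, and Myc 4. The likeness is one of covered share in 1 library.

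The other survival genes had little or no peak coverage. Bcl2, the founding member of the family, spans 176115 bp on chromosome 1 (106538176 to 106714290, minus strand). It had 1 peak of 246 bp in the OSS_128167 list (106616304 to 106616549, fold 2.52, FDR 0.676, pileup 6), 97741 bp from its start. That covered 0.14% of the gene, or 0.568 peaks per 100 kb. Over protein-coding genes longer than 100 kb the median was 1.09 peaks per 100 kb, and 37.9% of them had at most 1 peak. The nearest untreated peak was 3458856 bp away.

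Bcl2l1, which encodes BCL-XL, spans 75072 bp on chromosome 2 (152758732 to 152833803, minus strand) and had no peak in its window in either list. The nearest peak of the OSS_128167 list lay 42024 bp away (fold 2.87, FDR 0.377), and the nearest untreated peak 985850 bp away. Of protein-coding genes over 50 kb, 29.2% had no peak in the gene in the OSS_128167 list. Bcl2l2, which encodes BCL-W, spans 7493 bp on chromosome 14 (54883366 to 54890858, plus strand) and had no peak in the gene. Its window peak (54894309 to 54894539, 231 bp, fold 3.90, FDR 0.000242, pileup 18) began 3451 bp past the gene end. It lay within Pabpn1, which encodes a nuclear poly(A)-binding protein, 166 to 396 bp after the start of that gene. Pabpn1 itself lies 3285 bp from Bcl2l2. The nearest untreated peak was 11355339 bp from Bcl2l2.

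Neither effector gene held a peak. Bax spans 5209 bp on chromosome 7 (45461695 to 45466903, minus strand). The peak of its window (45454809 to 45460035, 5227 bp, fold 11.96, FDR 2.21e-35, pileup 48) was the longest and strongest of the 14 in the member windows. It covered all of Ftl1, the gene of the ferritin light chain, began 149 bp before the start of Ftl1 and ran into Gys1, a glycogen synthase gene. It stopped 1660 bp short of the 3′ boundary of Bax, and none of it lay in Bax. Ftl1 is 1809 bp from Bax, on the same strand. The annotation also lists Ftl1 pseudogenes, so reads at Ftl1 may be shared with copies elsewhere. Bak1 spans 8816 bp on chromosome 17 (27019812 to 27028627, minus strand) and lies wholly within the boundaries of Ggnbp1, a gene on the other strand. Its window peak (27018497 to 27018966, 470 bp, fold 2.68, FDR 0.377, pileup 8) began 846 bp past the gene end and lay 462 to 931 bp after the start of Ggnbp1. Each of the peaks assigned to Bcl2l2, Bax and Bak1 thus overlapped another gene, with those at Bcl2l2 and Bak1 lying wholly within 1 kb after its start and the one at Bax running across the start of Ftl1 to 5077 bp after it. The nearest untreated peaks lay 6205533 bp from Bax and 2019711 bp from Bak1.

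Of the BH3-only genes, Pmaip1 and Bid had a peak each and Bcl2l11 and Bbc3 none. Pmaip1, which encodes NOXA, spans 6955 bp on chromosome 18 (66458604 to 66465558), and its peak of 378 bp lay inside it (66463909 to 66464286, fold 3.23, FDR 0.159, pileup 8), 1272 bp from the right boundary. It covered 5.43% of the gene, the largest covered share among the death members. Bid, whose product links death receptors to mitochondria, spans 23944 bp on chromosome 6 (120893119 to 120917062, minus strand). Its peak (120893058 to 120893489, 432 bp, fold 2.51, FDR 0.496, pileup 8) straddled the gene end, with 371 bp or 1.55% of the gene covered and 61 bp past it. The end of Bid lies 277 bp from Bcl2l13, a further family gene, so this peak was also within 1 kb of that gene. Per 100 kb, Pmaip1 had 14.4 peaks and Bid 4.18, against 64.1 for Mcl1.

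Bcl2l11, which encodes BIM, spans 36510 bp on chromosome 2 (128126038 to 128162547, plus strand), with its start inside the last 215 bp of Acoxl. The nearest OSS_128167 peak lay 37496 bp away, and its fold was 2.11 (FDR 0.966). Bbc3, which encodes PUMA, spans 9937 bp on chromosome 7 (16308398 to 16318334, plus strand). Its nearest OSS_128167 peak lay 35644 bp away, with a fold of 3.16 (FDR 0.0765). The untreated peak nearest to Bid was 138639 bp away, to Bbc3 855838 bp, to Bcl2l11 2736538 bp and to Pmaip1 10474139 bp. The untreated peak nearest to each of the 10 members had an FDR of 1, as did 1378 of the 1694 peaks of the untreated list.

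Set against each other in the OSS_128167 list, 3 of 4 survival members (75%, 19.4 to 99.4) and 4 of 6 death members (66.7%, 22.3 to 95.7) had a peak in the window, against 46.7% of protein-coding genes, and the intervals overlap. In the gene itself a peak was found at 2 of 4 survival (50%, 6.76 to 93.2) and 2 of 6 death members (33.3%, 4.33 to 77.7), against 34.4%. At an FDR of at most 0.05 it was found at 1 of 4 survival members (Mcl1; 25%, 0.631 to 80.6) and at 0 of 6 death members (exact 95% upper limit 45.9%), against 9.97%. Each of these intervals includes the background share, which at this width does not show likeness to it. The survival windows held 10 peaks, 8 of them at Mcl1, and the death windows 4. Median covered shares of the gene were 0.0698% for survival and 0% for death members, with ranges of 0 to 53.4% for survival and 0 to 5.43% for death members, against a median of 0% over all protein-coding genes. Median peak lengths were 674 bp in survival and 451 bp in death windows, with peaks over neighbouring genes included. Those were the peaks of 231 bp at Bcl2l2, 5227 bp at Bax and 470 bp at Bak1, which lay outside the members. The higher peak number, covered share and peak length of the survival members rest on Mcl1. Without it the survival windows held 2 peaks, of 246 bp at Bcl2 and 231 bp at Bcl2l2, both shorter than the shortest of the death windows (378 bp), and the highest covered share was 0.14%. In the untreated list 0 of 4 survival and 0 of 6 death members had a peak in the window.

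**Figure D3:**
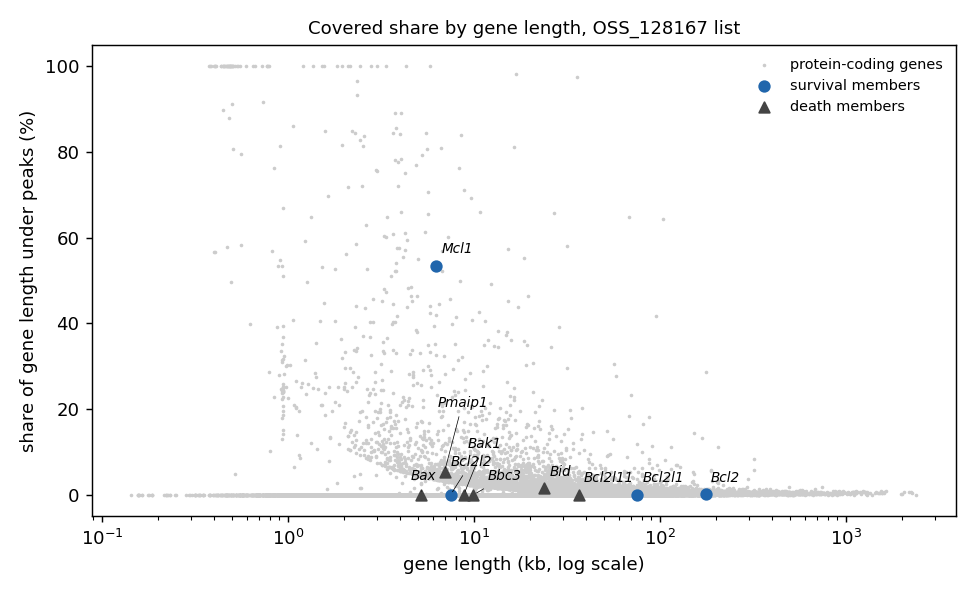
Share of each gene's length under OSS_128167 peaks in % against gene length in kb (log scale), for protein-coding genes (grey), survival members (circles) and death members (triangles). Mcl1 lies at 53.4%, Pmaip1 at 5.43% and Bid at 1.55%, and the other 7 members at 0.14% or less.

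Peaks outside the members lay past gene ends and not before gene starts. Strand was known from the promoter table for 9 members, Pmaip1 not being among them. Of these, 0 of 9 had an OSS_128167 peak wholly outside the gene within 5 kb before its start, and 4 of 9 (Mcl1, Bcl2l2, Bax and Bak1) within 5 kb past its end. Over 17491 protein-coding genes with a strand the shares were 7.14% and 19.6%, so the same order held across the genome. At an FDR of at most 0.05 the 3 members were Mcl1, Bcl2l2 and Bax, against 6.83% of genes past the end and 1.79% before the start. Of these peaks, those of Mcl1 alone lay over no other protein-coding gene. A peak reached the listed promoter window (250 bases before to 50 after a start) of 1 of 9 members, Mcl1, against 2.62% of protein-coding genes, or 1.47% at an FDR of at most 0.05.

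Promoters without a peak included GC-rich and GC-poor windows. Over the 14 listed windows of 9 members, GC content in the 250 bases before the start was 64.4% for Mcl1, 74.8% for Bcl2, 66.0% for Bcl2l2, 54.0% for Bax, 58.4% for Bak1 and 63.6% for Bid. It was 72.0% and 73.2% for the 2 windows of Bcl2l11, 72.4% to 81.6% for the 3 of Bbc3 and 47.6% to 53.2% for the 3 of Bcl2l1, against a median of 55.6% over 21262 windows of protein-coding genes. The observed over expected CpG ratio was 1.01 for Mcl1, 1.03 for Bcl2 and 0.769 for Bax, against a median of 0.53. It lay below that median for Bcl2l2 (0.372), Bak1 (0.38) and 1 window of Bcl2l1, which held no CpG. The GC box letters GGGCGG, searched on both strands with overlaps allowed, occurred in 10 of 14 windows and 7 of 9 members, against 42.6% of all windows. Mcl1 had 1 match and Bcl2 7. The CCAAT letters occurred in 3 of 14 windows, those of Bcl2l11 and 1 of Bbc3, against 35.4%, and the TATA letters TATAAA in 0 of 14, against 11.6%. Matches are letters in these windows and not binding sites.

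Of 42 other genes of the cell death pathway in 5 lists, 21 (50%) had an OSS_128167 peak in the window, against 46.7% of protein-coding genes. At an FDR of at most 0.05 there were 11 (26.2%), against 15.6%. The list of 10 regulators of the members supplied 9 of the 21 and 6 of the 11. In the gene itself 5 of the 42 (11.9%) had a peak at that limit, against 9.97%. In the untreated list 1 of 42 had a window peak, Apaf1 (fold 3.25, FDR 1), against 2.71%, and 0 at an FDR of at most 0.05, against 0.142%. Of 12 further BCL2 family genes 4 had a peak: Bcl2l13, a mitochondrial outer membrane protein (fold 3.33, FDR 0.0352), Bad, a BH3-only gene, whose strongest window peak lay over Plcb3 (fold 3.37, FDR 0.0205), Bok (3.08, FDR 0.191) and Bcl2l14 (2.93, FDR 0.167, outside the gene). The BH3-only genes Bik, Bmf and Hrk and the survival genes Bcl2a1a, Bcl2a1b and Bcl2a1d had none. The last 3 are close copies of each other, at which reads may be hard to place, which was not tested.

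The apoptosome and caspase list had 3 of 8 genes with a window peak, and 2 of these met the FDR limit of 0.05, namely Apaf1, the scaffold of the apoptosome (fold 3.24, FDR 0.0327, outside the gene), and Diablo, an inhibitor of IAP proteins (3.87, FDR 0.00967, over B3gnt4). Casp9 and Cycs had none. Of 5 IAP genes 2 had one, Birc6 with 5 peaks and Birc2 with 2, and 0 at an FDR of at most 0.05. Of 7 death receptor genes 3 had one, and at that limit 1, Tnfrsf1a, the TNF receptor gene (3.87, FDR 0.00597, over Plekhg6). Fas, Fadd, Casp8 and Ripk1 had none. Over all protein-coding genes the shares were 46.7% for a window peak and 15.6% for one at an FDR of at most 0.05.

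Of 10 genes that regulate or bind the members, 9 had a window peak, against 46.7% of protein-coding genes. At an FDR of at most 0.05 there were 6, against 15.6%, and 4 of the 10 had such a peak in the gene, against 9.97%. The list was chosen with earlier results of these data known, so these shares cannot test an excess over the background. Foxo1, Foxo3, Usp9x and Huwe1 are longer than 50 kb, a length at which 75.6% of protein-coding genes had a window peak. Ddit3, which encodes the stress transcription factor CHOP, had 8 window peaks, all at an FDR of at most 0.05, a highest fold of 6.76, at a peak that also lay over Mbd6, and 84.4% of its length covered. Atf4, the factor above it in the integrated stress response, was covered over 96.6%, with a fold of 4.96. Vdac1 and Vdac2, which encode mitochondrial outer membrane channels, had window peaks with folds of 4.73 (outside the gene, of which no base lay under a peak) and 3.91 (in the gene), and Usp9x, which encodes a deubiquitinase of MCL1, 3.59 with an FDR just under 0.05. Mdm2, the ubiquitin ligase of p53, had a window peak over Cpm (3.31, FDR 0.012), and Trp53 had no peak. Foxo1 and Foxo3, transcription factors upstream of Bcl2l11, had 3 and 5 peaks, and Huwe1, which encodes a ubiquitin ligase of MCL1, 6, all with an FDR above 0.05. Gene length was not held fixed between the lists.

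**Figure D4:**
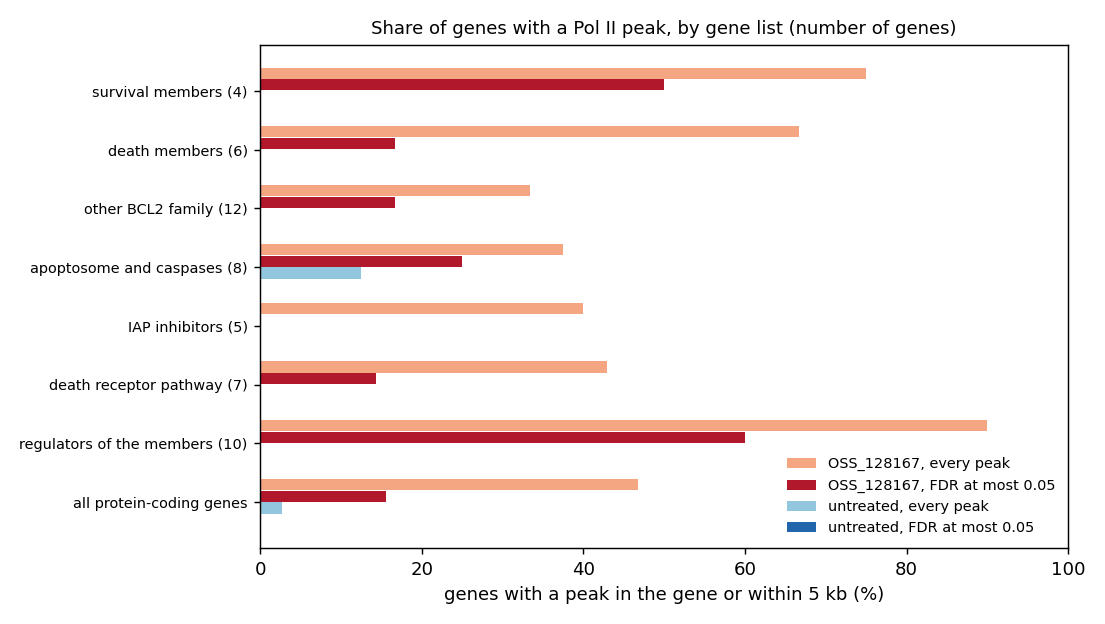
Share of genes in % with a peak in the gene or within 5 kb, for the survival and death members, the 5 pathway lists and all protein-coding genes, with the number of genes in brackets. Bars give the OSS_128167 list above the untreated list, each for every peak and for an FDR of at most 0.05. The regulators stand at 90% and 60%, against 46.7% and 15.6% of all protein-coding genes in the OSS_128167 list. The gene lists were chosen with earlier results of these data known.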

How the data were processed

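Peak lists of 1 OSS_128167 and 1 untreated Pol II library were used, grouped by sample title. Per the submitters' processing notes the tools were fastp and BWA and the build mm10. The peak caller, its thresholds and the use of the inputs are not given in those sources. Per the file headers, each deposited list, made per library, holds positions, peak lengths, fold enrichment (a ratio), p-value, FDR and pileup (a signal height). Lists reach up to p-values of 0.00999, so they include peaks that fail correction for multiple tests. Gene boundaries came from RefSeq (GRCm38.p6, the assembly behind mm10), and strand and starts from its promoter table, which held 9 of 10 members. Covered share is the part of a gene under merged peaks. Overlaps were computed with Python 3.11.15, numpy 2.4.6, pandas 2.3.3 and scipy 1.17.1, and plots with matplotlib 3.10.9. On simulated peaks they differed from a direct search at 0 of 300 genes. Named genes were all members, genes of 5 pathway lists with a peak at an FDR of at most 0.05 or alone in having one, neighbours under a window peak, and the 5 genes nearest to Mcl1 in covered share; a few pathway genes without such a peak are named after their values were seen. Some genes of these lists are not reported here by name. The members and lists were chosen with earlier results of these data known. Alternatives were an FDR limit, other windows, the peak centre and leaving out peaks over neighbouring genes.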

Additional observations from a re-analysis of the deposited data

How the results depend on the processing

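Members with a peak in the OSS_128167 list numbered 7, of which 3 were survival and 4 death genes, with 14 peaks. With peaks of an FDR of at most 0.05 alone the counts were 3 members, 1 death member and 7 peaks, the median covered share of survival members was 0%, and the covered share of Mcl1, an alternative added after seeing the data, was 24.5%. Within the gene boundaries alone (0 kb) there were 4 members, 2 death members and 7 peaks, and with 1 kb on each side 9 peaks. Without peaks over another protein-coding gene there were 4 members, 2 of them death members. Fewer peaks counted is how each of these alternatives is built. A window of 10 kb gave 19 peaks at the same 7 members, and the peak centre changed none of the counts. The untreated list held 0 members under each alternative run. No paired analysis was possible because each group had 1 Pol II library. The depth of the libraries is unknown, so a member without a listed peak is not shown to lack Pol II.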
